A study of Mus musculus with 12 samples.

Results

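Matrix metalloproteinases (Mmp), the Adamts proteases and their tissue inhibitors (Timp) were followed across neonatal mouse dermis of 2 body sites and 2 ages. The members were all probe sets annotated to exactly 1 gene whose symbol starts with Mmp, Timp or Adamts and goes straight on with a number, so the Adamtsl genes were left out. This gave 70 of 45037 probe sets, which stood for 37 of 18193 genes: 18 Mmp, 15 Adamts and 4 Timp genes. The study asked how the dermis differs with location and with maturation, in skin that can still make hair follicles after wounding. Dermis of C57Bl6/CBA F1 mice was hybridised to Affymetrix MG430.2A arrays in 4 groups of 3 arrays: tail skin at postnatal day 5 (P5), back skin at P5, tail skin at day 1 (P1) and back skin at P1. All groups shared the strain, and no other genotype and no treatment is given for any of them. The study's methods describe triplicate mice for P1 and do not describe the P5 arrays, whose spread may be technical. The fit took 1 spread per gene from all 4 groups, so the P1 p-values rest partly on the P5 arrays too.

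Mmps are zinc proteases that together cut most components of the extracellular matrix: collagenases open fibrillar collagen, gelatinases digest denatured and basement membrane collagen, stromelysins have broad substrates and membrane-type Mmps work at the cell surface. Adamts proteases are secreted relatives with thrombospondin repeats, several of which cut the large proteoglycans versican and aggrecan, while others trim procollagen. Timps bind the active site of these enzymes and hold them in check. In growing skin the family is known for remodelling the dermis around developing hair follicles, vessels and fat.

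Every value below is a log2 value that the authors had centred on the median of each probe set over the 12 arrays. A value of 1 is thus 2 times that median on this scale, levels of different genes cannot be compared, and it cannot be seen whether a gene is expressed at all. For the same reason, whether the defining markers of dermis are present could not be checked. A gene was called where limma, fitted over all genes and arrays, gave an adjusted p under 0.05. Tail skin had been loosened from its epidermis in EDTA and back skin in dispase-trypsin at P1, so site and solution cannot be told apart. At P1 the separated dermis was then digested with collagenase to a suspension of single cells, which were washed and lysed. The study names no sorting of cell types for these arrays, so fewer cells of a type and less RNA per cell cannot be told apart.

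Directions follow the labels, and 2 checks went against them. Hoxd10, a posterior body patterning gene that marks caudal skin, was lower on the arrays labelled tail than on those labelled back, by -3.32 at P1 and -3.05 at P5 (log2, limma adjusted p = 1.2e-05 and 2.2e-05). Hoxd11 differed by -3.09 and -3.28, Hoxb13 by -2.04 and -1.85 and Hoxa13 by -1.36 and -1.19, and all passed the test at both ages. The study gives no direction for these Hox genes. It placed fat metabolism terms higher in the back, whereas on the P1 arrays labelled tail all 5 adipocyte genes were higher, among them adiponectin (Adipoq) by 5.23, leptin (Lep) by 2.93 and Cidec by 2.76. That direction opposes the study's, so each signed site difference below is that of the arrays labelled tail minus the arrays labelled back. The array P5 Tail 2 stood apart, with a standard deviation of 0.496 over all probe sets against 0.227 to 0.338 on the other arrays. Cartilage markers were high on 3 arrays, all labelled back: the mean of 12 such genes was 2.14 on P1 Back 1, 1.82 on P1 Back 6 and 0.90 on P5 Back 3, and -0.39 to 0.16 on the rest. On the same 3 arrays, in that order, the skeletal muscle mean was 0.705, 1.092 and 1.375 and the tendon mean 1.644, 1.065 and 1.298. On P1 Back 5, P5 Back 1 and P5 Back 2 the muscle mean was -2.112, -2.038 and -1.844. The tendon mean there was -0.024, 0.233 and 0.478. The P1 arrays labelled tail had muscle means of 0.539 to 2.021. Leaving the 3 arrays out thus does not single out cartilage. No 2 arrays held identical values.

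At P1 the Adamts genes carried most of the difference between the labelled sites. Of the 37 genes, 11 passed the test, 7 higher and 4 lower on the arrays labelled tail, where 3.97% of all genes were called (2.06% higher, 1.91% lower). By family these were 6 higher and 2 lower of 15 Adamts genes, 0 higher and 1 lower of 18 Mmp genes, and 1 higher and 1 lower of 4 Timp genes. At P5, 8 genes passed, 4 higher and 4 lower, with 6.91% of all genes called (4.3% higher, 2.61% lower). They were 2 higher and 4 lower of the Adamts genes, 1 higher of the Mmp genes and 1 higher of the Timp genes. The median absolute difference of the members was 0.264 at P1 and 0.203 at P5, beside 0.128 and 0.152 over all genes tested. Their signed medians stayed close to those of all genes, at -0.01 and -0.08 against -0.04 and -0.02, so members moved apart in both directions. Groups of 3 arrays did not overlap for 16 members at P1, where 30.2% of all genes did not overlap, and for 14 at P5, where 20.6% did not. At 2-fold or more there were 3 members at P1 and 2 at P5 (1.88% and 2.38% of all genes).

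**Figure D1:**
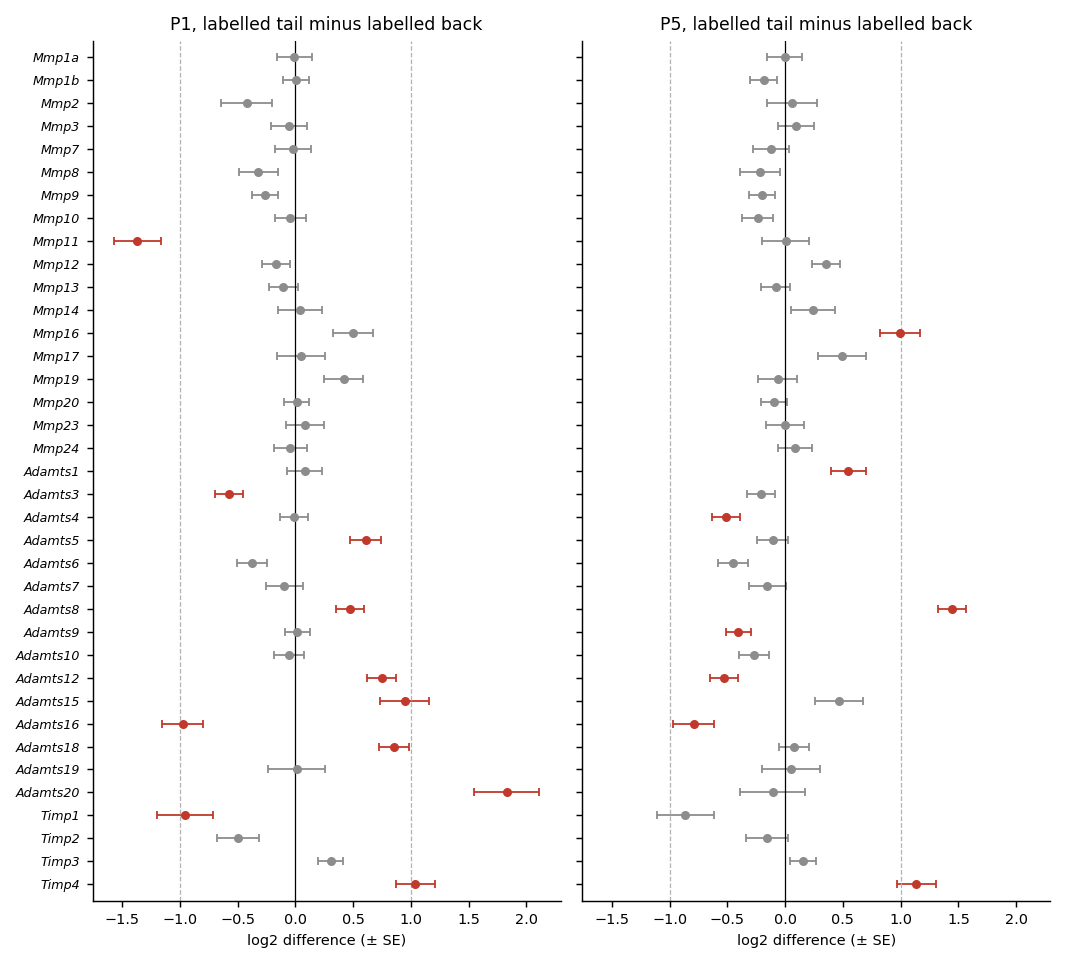
Log2 difference of the arrays labelled tail minus those labelled back for all 37 genes at P1 (left) and P5 (right), with bars for the SE of the fit, red for limma adjusted p under 0.05 and dashed lines at 2-fold. Adamts20 stood at 1.83 at P1 and -0.11 at P5, while Timp4 stood above 1 at both ages.

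Among the Adamts enzymes that cut proteoglycans, 4 of 7 were higher on the P1 arrays labelled tail and none was lower. Adamts20, known from belted mice that lack pigment cells in a band of skin, had 1.79, 1.21 and 1.80 on the P1 arrays labelled tail, against -0.28, -0.46 and 0.05 on those labelled back. The difference was 1.83 ± 0.28 (SE, n = 3 each), or 3.56-fold (limma adjusted p = 0.0022). At P5 the gene had -0.79, 0.48 and -0.34 on the labelled tail arrays and -0.05, -0.43 and 0.15 on the labelled back arrays, which overlapped, with a difference of -0.11 (95% interval -0.71 to 0.50). Only the P1 arrays labelled tail thus stood above the other 9 arrays.

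Adamts8 and Adamts15, which lie next to each other on chromosome 9 of GRCm38.p6, were both higher on the P1 arrays labelled tail. Adamts15, which cuts versican, had 1.28, 0.44 and 0.88 on the labelled tail arrays and 0.12, -0.33 and -0.03 on the labelled back arrays, a difference of 0.95 ± 0.21 (SE; adjusted p = 0.024, limma). Adamts8, a proteoglycan-cutting relative, had 0.27, 0.13 and 0.32 against -0.29, -0.20 and -0.21, a difference of 0.48 ± 0.12 (SE; limma adjusted p = 0.047). At P5 Adamts8 had 1.49, 1.15 and 1.03 on the labelled tail arrays and -0.23, -0.30 and -0.13 on the labelled back arrays. Its P5 difference of 1.44 ± 0.12 was the largest of the 37 genes at that age (2.72-fold, limma adjusted p = 2.3e-05). Adamts15 had 0.50, -0.08 and 0.03 against -0.41, -0.45 and -0.09 at P5, groups that narrowly did not overlap. Its P5 difference of 0.47 (95% interval 0.01 to 0.92) did not pass (limma adjusted p = 0.235). The change of the Adamts15 site difference between the ages, -0.48 (95% interval -1.13 to 0.17), was not called.

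Adamts1 and Adamts5, neighbours on chromosome 16 of GRCm38.p6, were called at different ages. Adamts5, a main aggrecanase of mouse cartilage, had 0.49, 0.15 and 0.35 on the P1 arrays labelled tail and -0.06, -0.47 and -0.30 on those labelled back, a difference of 0.61 ± 0.13 (SE; limma adjusted p = 0.02). At P5 its values overlapped, with -0.09, -0.13 and 0.04 against -0.03, -0.05 and 0.22. Of its 4 probe sets, 2 passed on their own at P1. Adamts1, a versican-cutting enzyme also needed for ovulation, overlapped at P1, with 0.32, 0.08 and -0.02 against -0.06, 0.18 and 0.02. At P5 it had -0.31, 0.22 and 0.11 on the labelled tail arrays and -0.61, -0.67 and -0.35 on the labelled back arrays, a difference of 0.55 ± 0.15 (SE; limma adjusted p = 0.047).

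Of the proteoglycan-cutting genes, Adamts4 and Adamts9 were lower on the P5 arrays labelled tail. Adamts4, an aggrecanase, had -0.63, -0.97 and -0.93 on those arrays and -0.21, -0.49 and -0.29 on the P5 arrays labelled back, a difference of -0.52 ± 0.12 (SE; limma adjusted p = 0.021). Adamts9, which cuts versican and acts with Adamts20 in mouse development, had -0.63, -0.28 and -0.54 against -0.10, -0.05 and -0.08, a difference of -0.41 ± 0.11 (SE; limma adjusted p = 0.039). At P1 both overlapped between the labelled sites. Adamts4 then had 0.47, 0.22 and 0.22 against 0.36, 0.32 and 0.27, and Adamts9 had 0.18, 0.19 and 0.09 against 0.06, 0.25 and 0.09. At P5 the Adamts4 probe sets differed by -0.53 and -0.50, and only the second passed alone (limma adjusted p = 0.08 and 0.041). The Adamts9 probe sets differed at P5 by -0.36, -0.36 and -0.49, and only the last passed alone (limma adjusted p = 0.044).

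Adamts12 was the 1 gene called in opposite directions at the 2 ages. It cuts cartilage oligomeric matrix protein. It had 0.78, 0.45 and 0.65 on the P1 arrays labelled tail and -0.01, -0.21 and -0.13 on those labelled back, a difference of 0.75 ± 0.12 (SE; limma adjusted p = 0.0037). At P5 it had -0.46, -0.54 and -0.16 on the labelled tail arrays and 0.20, 0.06 and 0.17 on the labelled back arrays, a difference of -0.53 ± 0.12 (SE; limma adjusted p = 0.021). Both of its probe sets passed at P1, and 1 of them at P5. Adamts7, which cuts the same protein, differed by -0.10 and -0.16 and passed at neither age.

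Adamts18 was higher on the P1 arrays labelled tail and Adamts16 and Adamts3 were lower. Adamts18 had 1.03, 0.81 and 0.64 on the labelled tail arrays and 0.06, 0.00 and -0.14 on the labelled back arrays, a difference of 0.85 ± 0.13 (SE; limma adjusted p = 0.0022) that each of its 3 probe sets passed alone. The P5 groups overlapped, with -0.12, -0.17 and -0.21 against -0.01, -0.26 and -0.45. The Adamts18 difference was thus seen at 1 age, as for Adamts20.

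Adamts16 was lower at both ages. Its values were -0.50, -0.78 and -0.35 on the P1 arrays labelled tail and 0.46, 0.47 and 0.36 on those labelled back, a difference of -0.98 ± 0.18 (SE; limma adjusted p = 0.0061). The P5 arrays gave -0.78, -0.72 and -0.07 on the labelled tail side against 0.42, 0.24 and 0.14, a difference of -0.79 ± 0.18 (SE; limma adjusted p = 0.015). The groups did not overlap at either age, but the 2 probe sets disagreed in size: at P1 one differed by -1.76 and the other by -0.19, and the second did not pass.

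Adamts3, which removes the amino propeptide of procollagen and activates the lymphatic growth factor Vegfc, had -0.11, -0.04 and -0.32 on the P1 arrays labelled tail and 0.61, 0.29 and 0.36 on those labelled back. The difference was -0.57 ± 0.12 (SE; limma adjusted p = 0.015), and of its 2 probe sets one differed by -1.01 and passed while the other differed by -0.14 and did not. At P5 the gene had -0.13, -0.33 and -0.07 against 0.11, 0.02 and -0.02, without a call. Adamts6, Adamts10 and Adamts19 passed at neither age, with differences between -0.45 and 0.05.

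**Figure D2:**
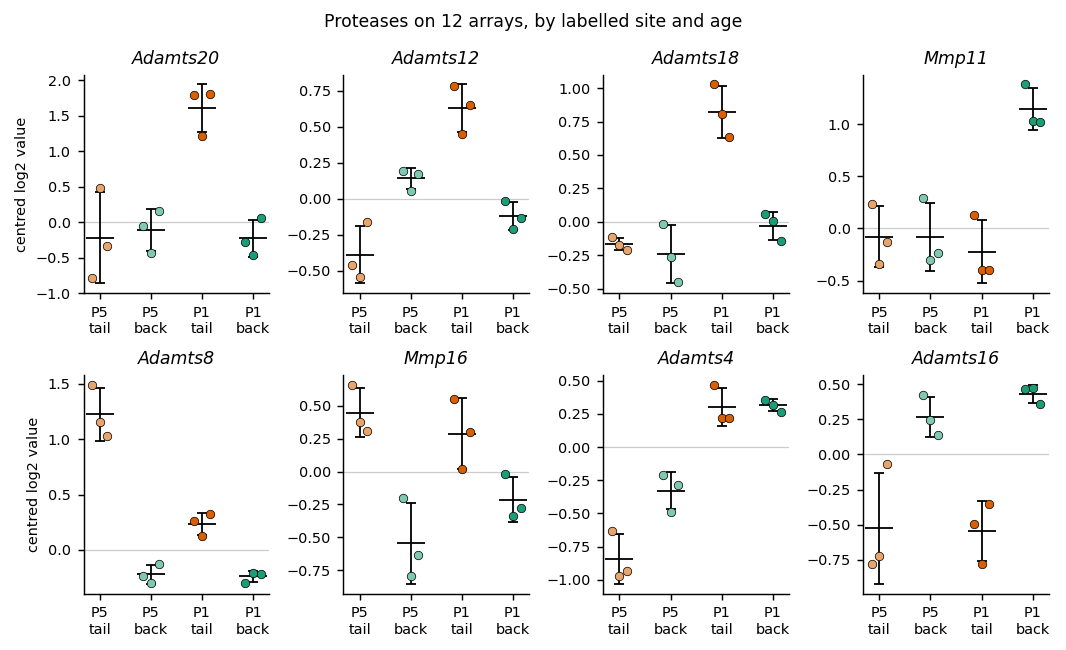
Centred log2 values of 8 proteases on each of the 12 arrays by group, with points for arrays and bars for the mean ± SD of 3. The P1 arrays labelled tail stand above the other arrays for Adamts20, Adamts12 and Adamts18, the P5 arrays labelled tail do so for Adamts8, and the P1 arrays labelled back do so for Mmp11.

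Most Mmp genes differed little between the labelled sites, with a median absolute difference of 0.069 at P1 and 0.111 at P5, under that of all genes, and Mmp11 and Mmp16 were the exceptions that passed. Mmp11, stromelysin 3, is made by stromal cells and is activated by furin before it leaves the cell. It had 0.13, -0.40 and -0.40 on the P1 arrays labelled tail and 1.38, 1.03 and 1.02 on those labelled back, a difference of -1.37 ± 0.20 (SE; 2.58-fold lower, limma adjusted p = 0.0016). The P1 array labelled back without raised cartilage markers, P1 Back 5, carried the 1.03. The part of cartilage or other tissues in the Mmp11 difference was not tested. At P5 Mmp11 had 0.24, -0.34 and -0.13 against 0.29, -0.30 and -0.24, which overlapped, with a difference of 0.00 (95% interval -0.43 to 0.44).

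Mmp16, a membrane-type Mmp that can activate the gelatinase Mmp2, had 0.66, 0.37 and 0.31 on the P5 arrays labelled tail and -0.20, -0.80 and -0.64 on those labelled back. Its difference of 0.99 ± 0.18 (SE; 1.99-fold, limma adjusted p = 0.0042) was passed by all 4 of its probe sets. At P1 it had 0.55, 0.02 and 0.30 against -0.02, -0.34 and -0.28. These groups did not overlap either, but the difference of 0.50 (95% interval 0.12 to 0.88) did not pass (limma adjusted p = 0.176). The change of the site difference between the ages, 0.49 (95% interval -0.04 to 1.03), was not called.

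The gelatinases and their cell surface activator passed in no comparison. Mmp2 had 0.06, -0.62 and -0.46 on the P1 arrays labelled tail and 0.33, -0.07 and -0.02 on those labelled back, a difference of -0.42 (95% interval -0.90 to 0.05). Mmp9 differed by -0.26 at P1 (95% interval -0.51 to -0.02) and by -0.20 at P5. Mmp14, which activates Mmp2 with the help of Timp2, differed by 0.04 at P1 (95% interval -0.37 to 0.46) and by 0.24 at P5 (95% interval -0.17 to 0.65).

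A run of 9 neighbouring Mmp genes on chromosome 9 of GRCm38.p6 holds the collagenases Mmp1a, Mmp1b, Mmp8 and Mmp13, the stromelysins Mmp3 and Mmp10, matrilysin (Mmp7), macrophage elastase (Mmp12) and the enamel protease Mmp20. Proximal promoters of several of these genes are known for AP-1 elements, which bind Fos and Jun proteins, and this is why some with a match are shown. The stretches below are the 100 bases before the annotated start from RefSeq (GRCm38.p6), written 5′ to 3′ on the gene's strand, with matches in capitals. They are Mmp13 (chr9:7272414-7272513, plus strand), Mmp3 (chr9:7445722-7445821, plus), Mmp1a (chr9:7464041-7464140, plus) and Mmp10 (chr9:7502242-7502341, plus), where capitals mark the AP-1 element. For contrast, Mmp11 (chr10:75932503-75932602, minus) and Adamts1 (chr16:85803114-85803213, minus), called members from outside the run, are shown with the GC box in capitals.
Mmp13: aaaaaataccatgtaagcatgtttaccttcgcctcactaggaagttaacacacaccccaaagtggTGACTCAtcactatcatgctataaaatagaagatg
Mmp3: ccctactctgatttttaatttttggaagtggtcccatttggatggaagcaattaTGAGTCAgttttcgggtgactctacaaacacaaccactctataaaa
Mmp1a: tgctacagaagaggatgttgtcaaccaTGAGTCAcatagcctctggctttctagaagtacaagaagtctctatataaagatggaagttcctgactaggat
Mmp10: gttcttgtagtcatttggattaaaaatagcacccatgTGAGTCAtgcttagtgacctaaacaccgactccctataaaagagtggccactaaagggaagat
Mmp11: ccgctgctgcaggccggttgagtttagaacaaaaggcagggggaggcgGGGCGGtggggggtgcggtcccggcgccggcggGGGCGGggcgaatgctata
Adamts1: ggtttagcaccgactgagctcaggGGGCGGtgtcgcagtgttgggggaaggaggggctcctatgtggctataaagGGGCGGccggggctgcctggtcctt

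The letters searched over 250 bases before each start, on both strands, were TGAGTCA (reverse complement TGACTCA) for the AP-1 element and GGGCGG (reverse complement CCGCCC) for the GC box. Matches of the 2 motifs cannot overlap each other. RefSeq entries were matched for 26 promoters of 23 member genes. The AP-1 letters were in 7 of 11 promoters of the run and in 0 of the 15 promoters of other members, beside 4.46% of 32851 promoters in the table. The GC box was in 0 of the 11 and in 11 of the 15 (73.3%), beside 32.7% of all. Upstream of the start, the AP-1 letters began at -35 in Mmp13, -46 in Mmp3, -63 in Mmp7 and Mmp10, -73 in Mmp1a and -93 in Mmp1b, and at -44 from an inner start of Mmp12. The promoters of Mmp8 and Mmp20, the outermost start of Mmp12 and an inner start of Mmp7 held none. A match of letters describes the sequence and is no measured binding site.

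No gene of the run passed between the labelled sites, in comparisons in which transcripts of AP-1 proteins did. At P1 0 of the 9 genes passed and at P5 0, with differences of at most 0.319 and 0.353 in size. With 3.97% and 6.91% of all genes called, a count of 0 in 9 is near the background and is no result about the run. At an unadjusted p under 0.05 there were 0 at P1 and 1, Mmp12, at P5. Mmp13, the main interstitial collagenase of mice, differed by -0.10 at P1 and -0.08 at P5, and Mmp3 by -0.05 and 0.09. Fos differed by -0.97 at P1 and by 1.05 at P5, and the AP-1 relative Atf3 by -1.85 and 1.14, all called (limma adjusted p = 0.037, 0.016, 0.0018 and 0.025). Of 11 immediate early and dissociation genes, 4 were lower at P1 and 5 were higher at P5 on the arrays labelled tail. A probe set that detects nothing would be flat too, and the centred values do not show which of these probe sets do. Mmp1a and Mmp1b are close copies in the mouse, so their probe sets are uncertain as to which of the pair they read.

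**Figure D3:**
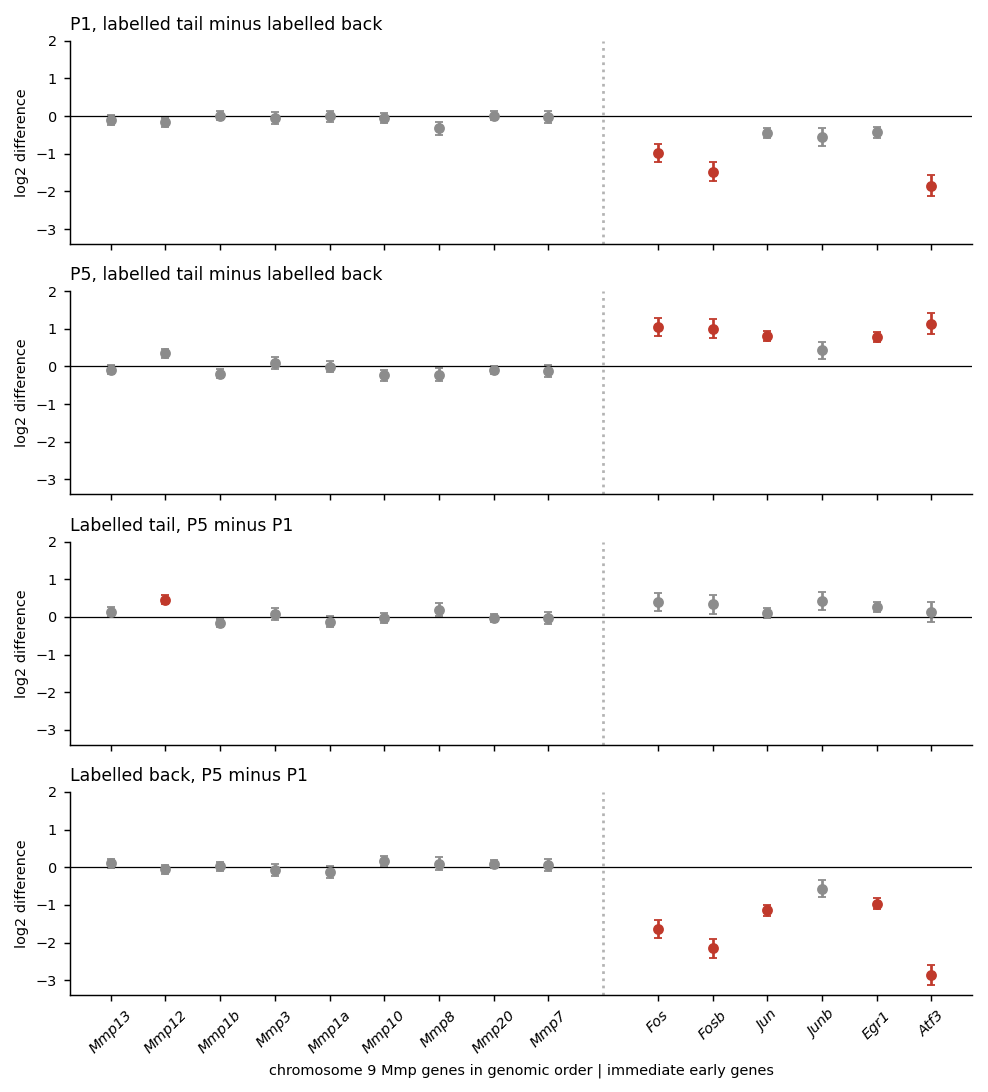
Log2 difference with SE for the 9 Mmp genes of the chromosome 9 run in genomic order (left of the dotted line) and 6 immediate early genes (right), in each of 4 comparisons, with red for limma adjusted p under 0.05. The Mmp genes stay between -0.32 and 0.46, while Atf3 spans -2.86 to 1.14.

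The Timps split: Timp4 was higher and Timp1 lower on the P1 arrays labelled tail. Timp4, an inhibitor known from heart and fat, had 0.50, 0.25 and 0.36 on those arrays and -0.54, -0.71 and -0.76 on those labelled back, a difference of 1.04 ± 0.17 (SE; 2.06-fold, limma adjusted p = 0.0033). At P5 it had 1.25, 0.60 and 0.49 against -0.25, -0.40 and -0.42, a difference of 1.14 ± 0.17 (SE; 2.20-fold, limma adjusted p = 0.0014). The groups did not overlap at either age, and the difference between the 2 site differences was 0.10 (95% interval -0.42 to 0.61). Its probe sets differed in size, with 1.60 and 0.48 at P1, of which the second just missed (limma adjusted p = 0.053). The mean of 5 adipocyte markers, whose direction at P1 opposes the study's, also differed: it was 1.29 to 1.90 on the P1 arrays labelled tail and -1.56 to -1.34 on those labelled back. At P5 it was 0.02 to 0.52 on the labelled tail arrays and -0.48 to -0.004 on the labelled back arrays. Of the 5 markers, 5 were higher at P1 and 1 at P5, and their part in the Timp4 difference was not tested.

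Timp1, an inducible inhibitor of most Mmps, had -0.23, -0.06 and -0.47 on the P1 arrays labelled tail and 0.87, 0.40 and 0.84 on those labelled back. The difference was -0.96 ± 0.24 (SE; 1.94-fold lower, limma adjusted p = 0.048). The highest values were on P1 Back 1 and P1 Back 6, where cartilage, muscle and tendon markers stood above P1 Back 5. The part of these tissues in the difference was not tested. At P5 it had 0.06, -0.73 and -0.93 against -0.06, 0.53 and 0.52. Here the difference of -0.86 missed the threshold (limma adjusted p = 0.053) and the groups overlapped through P5 Tail 2. Without that array the difference was -1.16 and passed (limma adjusted p = 0.006).

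Timp2, which takes part in Mmp2 activation, had -0.11, -0.55 and -0.38 on the P1 arrays labelled tail and 0.47, -0.09 and 0.05 on those labelled back. All of its 6 probe sets were lower, the groups did not overlap, and the gene difference of -0.49 (95% interval -0.89 to -0.10) did not pass (limma adjusted p = 0.207). At P5 it had 0.36, -0.28 and -0.12 against 0.05, 0.19 and 0.18. Timp3, which binds the matrix and also inhibits Adamts4 and Adamts5, had 0.22, 0.08 and 0.28 against -0.06, -0.09 and -0.18 at P1, a difference of 0.30 (95% interval 0.06 to 0.55) that did not pass. At P5 Timp3 overlapped, with 0.35, -0.02 and 0.04 against -0.07, 0.01 and -0.03. With array weights in the fit both genes passed at P1, at -0.47 for Timp2 and 0.36 for Timp3 (limma adjusted p = 0.017 and 0.003). That fit also called more of the members at P1 than the main fit did. Neither gene passed with array centring, robust variances, the replicate block, single or unshared probe sets, or only the groups compared.

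**Figure D4:**
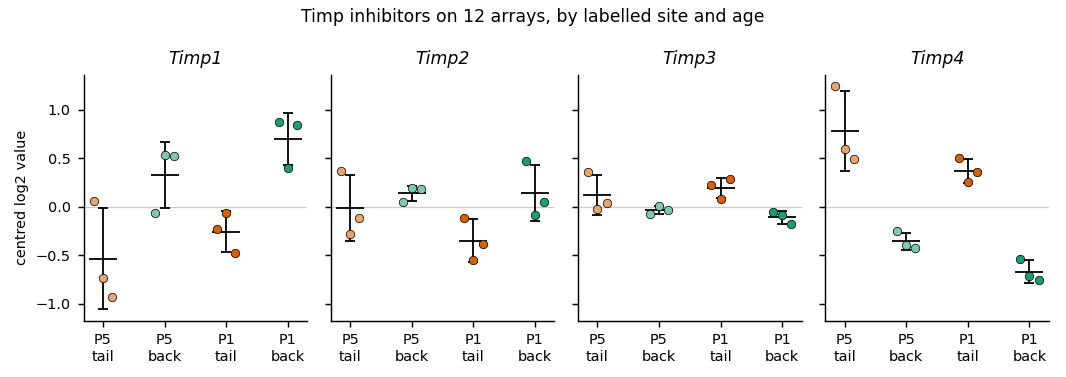
Centred log2 values of the 4 Timp genes on each of the 12 arrays by group, with points for arrays and bars for the mean ± SD of 3. Timp4 lies above on the arrays labelled tail at both ages and Timp1 lies below at P1, while at P5 the array P5 Tail 2 brings Timp1 to 0.06.

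The site differences rested on 3 arrays a side, and part of the calls did not survive a smaller set. At P1 Adamts12, Adamts16, Adamts18, Adamts20, Mmp11 and Timp4 passed whichever of the 6 arrays was left out. Adamts8 (0.44 to 0.53) and Timp1 (-1.11 to -0.85) lost the call whichever was left out, with limma adjusted p of 0.051 to 0.197 and 0.052 to 0.202. Adamts15 (0.74 to 1.16) and Adamts5 (0.51 to 0.72) lost it without P1 Tail 4, P1 Tail 6, P1 Back 5 or P1 Back 6, and Adamts3 (-0.64 to -0.48) without P1 Tail 6 or P1 Back 1. Leaving out the 3 arrays with high cartilage markers leaves 1 P1 array labelled back, whose spread is then assumed to be that of the other groups. In that fit 0 of the 11 passed, and the calls over all genes were 85, so the loss says little of these members. Adamts20 stood at 2.06, Mmp11 at -1.26 and Timp4 at 1.08, about as with all arrays, and Timp1 at -0.65.

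At P5 Adamts8, Mmp16 and Timp4 passed whichever of the 6 arrays was left out. Adamts12 (-0.64 to -0.45) and Adamts4 (-0.62 to -0.45) lost the call without P5 Tail 3, P5 Back 1 or P5 Back 3, and Adamts16 (-1.02 to -0.67) without P5 Tail 3, P5 Back 1 or P5 Back 2. Adamts1 (0.44 to 0.71) passed only without P5 Tail 2, and Adamts9 (-0.51 to -0.33) only without P5 Tail 3. Without the 3 arrays with high cartilage markers, Adamts8 at 1.49 and Timp4 at 1.10 passed.

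With age, 5 of the 15 Adamts genes fell on the arrays labelled tail. Of the 37 members 7 passed between P5 and P1 there, 2 higher and 5 lower at P5, where 5.3% of all genes were called (3.34% higher, 1.96% lower), and 6 of the 7 were Adamts genes. Adamts20 differed by -1.82 ± 0.28 (SE; 3.53-fold lower at P5, limma adjusted p = 0.0025), Adamts4 by -1.15, Adamts12 by -1.02, Adamts18 by -0.99 and Adamts9 by -0.64. For these 5 genes all P5 arrays lay below all P1 arrays; groups did not overlap for 10 members, where 19.4% of all genes did not. The group means of Adamts4, for instance, were -0.84 ± 0.19 at P5 and 0.30 ± 0.14 at P1 (SD, n = 3 each). Adamts8 went the other way, with means of 1.22 ± 0.24 at P5 and 0.24 ± 0.10 at P1, a difference of 0.98 (1.98-fold, limma adjusted p = 0.00059). Mmp19 at -0.61 and Adamts15 at -0.72 just missed (limma adjusted p = 0.055 and 0.072). Markers of other cells moved in the same comparison: 4 of 5 adipocyte genes were lower at P5, among them Adipoq by -1.75 and Cidec by -1.68, and 4 of 10 keratinocyte genes were higher, among them Krt15 by 0.96 and Krt14 by 0.87. The mean of the keratinocyte list was 0.067 to 0.476 on the P5 arrays and -0.735 to 0.130 on the P1 arrays. Of 6 skeletal muscle genes limma called 0 (4 at an unadjusted p under 0.05), with a median of -1.835. Their part in the Adamts differences was not tested.

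Macrophage elastase, Mmp12, was the other member higher at P5 on the arrays labelled tail. It had 0.47, 0.23 and 0.21 at P5 against -0.38, -0.04 and -0.04 at P1, a difference of 0.46 ± 0.12 (SE; limma adjusted p = 0.044). Of 8 macrophage markers 0 were higher and 3 were lower at P5, Mrc1 by -1.36, Cd163 by -1.21 and Csf1r by -0.68. The list mean was 0.063, -0.737 and -0.478 on the P5 arrays and 0.226 to 0.498 on the P1 arrays. The part of macrophages in the Mmp12 difference was not tested. Without P1 Tail 4, P1 Tail 6 or P5 Tail 2 the Mmp12 call was lost (limma adjusted p = 0.18, 0.073 and 0.11, with differences of 0.35 to 0.52 over all 6 arrays left out in turn). On the arrays labelled back it had -0.05, -0.13 and 0.04 at P5 and 0.08, -0.09 and 0.04 at P1.

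On the arrays labelled back 3 of the 37 members passed between the ages, all lower at P5, where 4.25% of all genes were called (2.22% higher, 2.03% lower). Groups did not overlap for 9 members, beside 28% of all genes. Mmp11 had a mean of -0.08 ± 0.32 at P5 and 1.15 ± 0.20 at P1 (SD, n = 3 each), a difference of -1.23 ± 0.20 (SE; 2.34-fold lower at P5, limma adjusted p = 0.0037). Adamts4 differed by -0.65 ± 0.12 (SE; limma adjusted p = 0.0087) and so fell with age at both labelled sites. Adamts1 differed by -0.59 ± 0.15 (SE; limma adjusted p = 0.047), and lost the call whichever of the 6 arrays was left out (-0.68 to -0.52), while Adamts4 lost it without P5 Back 2 (limma adjusted p = 0.055). Beside them, 9 of 11 immediate early and dissociation genes were lower at P5 on the labelled back arrays, with a median of -1.38 and Atf3 at -2.86, and 0 of 11 passed on the labelled tail arrays (1 at an unadjusted p under 0.05). Hair follicle epithelium genes were higher at P5 for 6 of 7 (Krt71 by 1.60) and adipocyte genes for 3 of 5 (Adipoq by 2.69), and 5 of 10 keratinocyte genes were lower (Krt1 by -2.48). The mean of the hair follicle list was 0.154 to 0.386 on the P5 arrays labelled back and -0.819 to -0.588 on the P1 arrays, and that of the keratinocyte list was -0.655 to -0.262 and 0.120 to 0.392. The part of any of these lists in the Mmp11, Adamts1 and Adamts4 differences was not tested. Without the cartilage-high arrays, which leaves 1 P1 array labelled back, 0 of the 3 passed and 17 of all genes did, with Mmp11 at -1.04, Adamts4 at -0.67 and Adamts1 at -0.81.

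**Figure D5:**
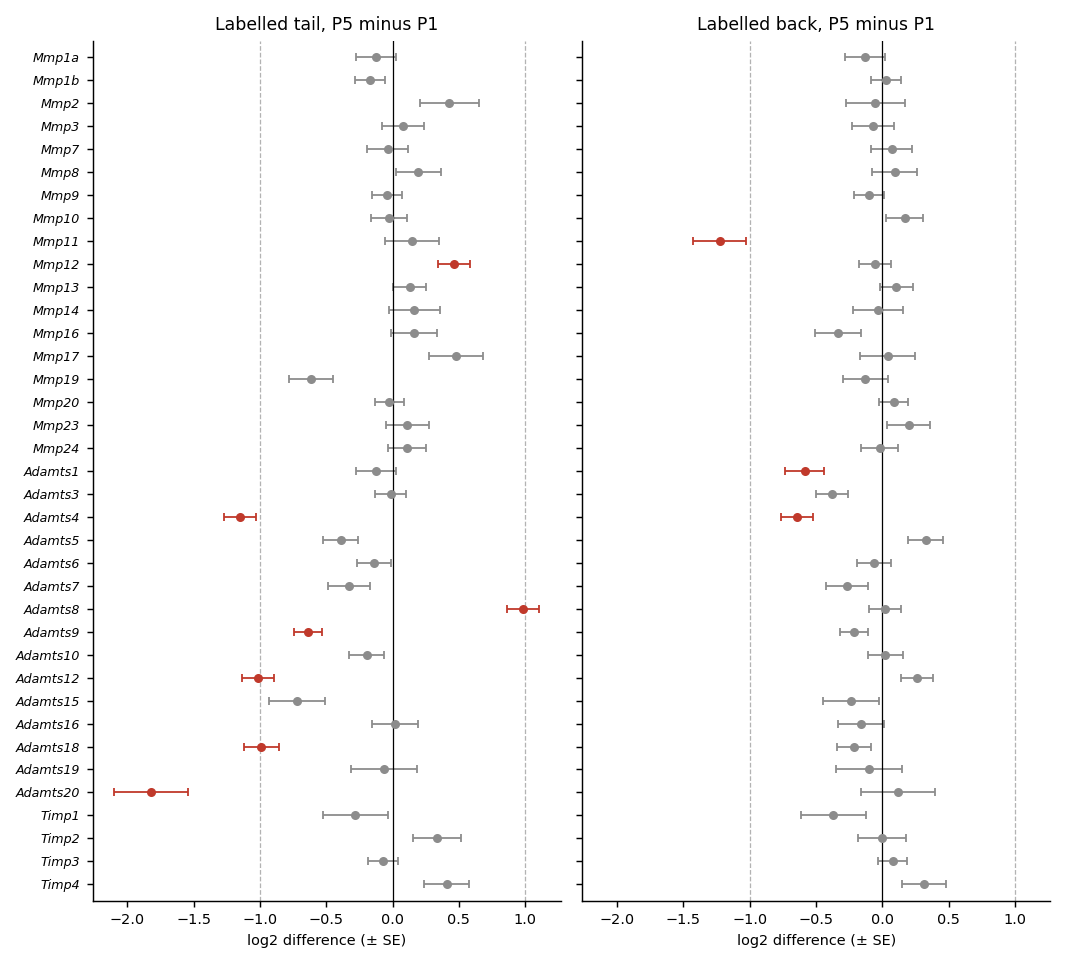
Log2 difference of P5 minus P1 for all 37 genes on the arrays labelled tail (left) and labelled back (right), with bars for the SE of the fit, red for limma adjusted p under 0.05 and dashed lines at 2-fold. Among the labelled tail arrays 5 Adamts genes lie below 0 in red, and among the labelled back arrays Mmp11 lies lowest at -1.23.

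The site difference itself changed with age for 5 members, tested as the interaction of site and age, where 2.87% of all genes were called (1.93% higher, 0.94% lower). It was lower at P5 than at P1 for Adamts20 by -1.94 ± 0.40, Adamts12 by -1.28 ± 0.17 and Adamts18 by -0.78 ± 0.18 (SE; limma adjusted p = 0.02, 0.0023 and 0.041). It was higher for Mmp11 by 1.37 ± 0.29 and Adamts8 by 0.97 ± 0.17 (SE; limma adjusted p = 0.022 and 0.0094). The patterns differ: Adamts20 and Adamts18 lost a positive site difference, Adamts12 turned round, Mmp11 lost a negative one and Adamts8 gained. For Adamts5 the change of -0.72 missed (limma adjusted p = 0.064). In the same test 5 of 5 adipocyte, 2 of 8 macrophage and 2 of 7 hair follicle genes were lower. Higher were 3 of 10 keratinocyte, 1 of 12 cartilage and 8 of 11 immediate early genes. The 1 cartilage-list gene was Sox9, by 1.08. The part of these lists was not tested.

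Genes that act on the proteases, or are cut by them, were counted in the same fit. Of 32 measured activators, clearance factors and surface inhibitors, 1 was higher and 2 lower on the P1 arrays labelled tail. These were Reck, a membrane-anchored Mmp inhibitor, at 0.66, the plasminogen activator Plau at -0.83, and cathepsin K (Ctsk) at -0.69. At P5, 4 were higher and 4 lower, among them the secreted protease Htra1 at 0.94, the procollagen processing enhancer Pcolce at -0.998, Ctsk at -0.96, the fibroblast surface protease Fap at -0.87 and the proprotein convertase Pcsk5 at -0.83. The list's medians were -0.01 and 0.08, close to all genes. Of 17 substrates, Col3a1 was higher at P1 by 0.46, and at P5 fibronectin (Fn1) was higher by 0.52 and Col1a2 lower by -0.46. Versican, aggrecan and Comp passed at neither age, but aggrecan and Comp were uneven among the P1 arrays labelled back. On P1 Back 1, P1 Back 5 and P1 Back 6 Comp had 2.58, 0.11 and 1.94 and aggrecan 2.06, -0.43 and 1.54. The P1 arrays labelled tail had -0.07, -0.06 and 0.02 for Comp and -0.20, 0.005 and -0.20 for aggrecan. At an unadjusted p under 0.05 there were 6 of the 17 substrates at P1 and 6 at P5. Of 10 Adam sheddases and 5 Adamtsl genes, limma called 0 between the labelled sites at either age. At an unadjusted p under 0.05 these were 3 Adam genes at P1 and 2 at P5, and 2 Adamtsl genes at each age.

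Markers of other cells also differed between groups, and their part in the protease differences was not tested. At P1, 5 of 7 hair follicle epithelium genes were higher and 4 of 12 cartilage genes lower on the arrays labelled tail. The cartilage median was -1.24, and 10 of the 12 had an unadjusted p under 0.05. Keratinocyte genes had 0 of 10 higher and 1 lower. Adipocyte genes were higher at P1 for 5 of 5 and macrophage genes for 1 of 8, and 1 of 5 bone genes was lower. Of 4 tendon genes, 1 was lower at P1, the transcription factor Mkx by -2.61. At P5, 4 of the 10 keratinocyte genes were higher, 2 of 8 macrophage genes lower and 2 of the 4 tendon genes lower, tenomodulin (Tnmd) by -1.95 and Mkx by -1.56. The tendon mean was -0.573 to -0.105 on the P5 arrays labelled tail and 0.233 to 1.298 on those labelled back. Also higher at P5 were 1 of 7 hair follicle genes (Lhx2 by 1.13) and 1 of 5 adipocyte genes (Retn by 0.64). Of 12 cartilage genes 1 was higher at P5 (Sox9 by 1.05), while the list median was -0.58. Among 5 bone genes Acp5 was higher by 0.95 and Ctsk lower by -0.96 at P5. Of 6 skeletal muscle genes limma called 0 at either age, with medians of 1.156 at P1 and 0.125 at P5. At an unadjusted p under 0.05 these were 2 and 0. Of 7 fibroblast genes 1 was higher at P1, and 1 was higher and 1 lower at P5, with medians of -0.06 and -0.07. Levels of all these genes were removed by the centring, so presence of a cell type cannot be read from them.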

How the data were processed

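The deposited values are log2 intensities. The authors normalised the array images by RMA in GeneSpring and, as the deposited table shows, centred each probe set on its median over the 12 arrays (row medians within 1e-06 of 0). The log base was not stated with the values and was taken as 2 from the use of RMA. Arrays have no read depth, so the number of arrays limits precision.

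Of 45101 probe sets, 64 controls were left out. The platform annotation names 1 gene for 34945 of the other 45037, more than 1 for 932 and no gene for 9160. Probe sets of a gene were averaged, which gave 18193 genes, and all 70 member probe sets were matched to RefSeq (GRCm38.p6) by gene ID. All 12 arrays in 4 groups were fitted together by lmFit and eBayes of limma 3.58.1, run in R 4.3.3, with Benjamini-Hochberg adjustment over all genes. The same fit was run per probe set, and the code was tested on simulated data. Alternatives were centring of each array, array weights, robust variances, a block for the replicate number, fits of only the groups compared, single or unshared probe sets, and leaving out arrays.

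Values on each array are given for called members, the Timp genes and the 3 members with the largest difference of a comparison. Members, lists and tests were chosen with earlier results of these data known.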

Additional observations from a re-analysis of the deposited data

Results flagged for a closer look

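In 5 members the difference between the labelled sites was not the same at the 2 ages by the test of that difference itself, the interaction of site and age. The change, P5 minus P1 of the labelled tail minus labelled back difference, was -1.28 for Adamts12, -0.78 for Adamts18 and -1.94 for Adamts20. It was 0.97 for Adamts8 and 1.37 for Mmp11. With single arrays left out in turn, Adamts12 and Adamts8 stayed called in 12 of 12 fits. Adamts20 stayed called in 8 (-2.29 to -1.65), not without P1 Tail 6, P1 Back 5, P5 Back 1 or P5 Back 3. Mmp11 stayed called in 7 (1.22 to 1.56), not without P1 Tail 6, P1 Back 1, P1 Back 6, P5 Back 2 or P5 Back 3. Adamts18 stayed called in 3 (-0.88 to -0.66), those without P1 Tail 6, P5 Tail 2 or P5 Back 3.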

How the results depend on the processing

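No called member changed direction under any alternative run. In the fit per probe set, the only probe sets of Adamts8 and Timp1 missed at P1 (limma adjusted p = 0.084 and 0.061). That of Adamts1 missed at P5 and between the ages on the labelled back arrays (limma adjusted p = 0.0705 and 0.082). That of Mmp12 missed between the ages on the labelled tail arrays (limma adjusted p = 0.079). The count of members called at P1 was 11, and was 19 with array weights, 7 with the replicate block, 0 without the cartilage-high arrays and 6 to 9 with single arrays left out. At P5 it was 8, and was 5 with the replicate block, 3 with only the groups compared, 2 without the cartilage-high arrays and 4 to 8 with single arrays left out. Between the ages on the labelled tail arrays it was 7, and was 4 with the replicate block and 6 to 9 with single arrays left out. On the labelled back arrays it was 3, and was 5 with array weights, 1 with the replicate block, 0 without the cartilage-high arrays and 1 to 2 with single arrays left out. For the interaction it was 5, and was 0 without the cartilage-high arrays and 3 to 5 with single arrays left out. Members at 2-fold or more numbered 3 at P1 (5 without the cartilage-high arrays, 2 to 5 with single arrays left out), 2 at P5 (2 to 4), 3 on the labelled tail arrays between the ages (2 to 5) and 1 on the labelled back arrays (1 to 1). Between the ages, 1.92% of all genes reached 2-fold on the labelled tail arrays and 2.16% on the labelled back arrays in the main fit. Dropping arrays leaves fewer arrays to test. Without the cartilage-high arrays the P1 arrays labelled back come down to 1, whose spread is assumed to be that of the other groups. For array weights and the block the cause was not tested. Calls over all genes under each alternative are not set beside these counts, so a larger or smaller count is not read as a result about the members.

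Uncalled Timp differences near 0 changed sign. For Timp2 between the ages, the labelled tail difference was -0.044 with the block, and the labelled back difference was 0.044 with array weights, 0.13 with single probe sets, 0.21 without the cartilage-high arrays, and -0.12 to 0.16 with single arrays left out. Timp3 on the labelled back arrays was -0.027 with the block. The interaction of Timp1 was -0.12 without the cartilage-high arrays and -0.21 to 0.29 with single arrays left out, and that of Timp4 was -0.034 with array weights and -0.14 to 0.24 with single arrays left out.

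Replicate numbers were not taken as pairs: deviations of same-numbered arrays correlated at 0.26 and -0.01 at P1, 0.17 and -0.02 at P5, -0.04 within labelled tail and 0.10 within labelled back. The study's exclusion of its dimmest genes was not run, since centring removed the levels.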
